A study of Mus musculus with 8 samples.

Results

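The cytosolic ribosomal protein genes, which code for the proteins of the ribosome that works outside the mitochondria, were measured in mouse platelets. They were taken by symbol, as Rpl or Rps followed by a number and at most 1 further letter, together with Rplp0, Rplp1, Rplp2 and Rpsa. The rule found 83 of the 55487 genes in the deposited tables, 51 of the large subunit and 32 of the small subunit, and 80 of the 83 are annotated as protein-coding. The platelets came from 8 male littermates aged 13 weeks, 4 labelled Dnmt3a+/- and 4 labelled WT, with 1 library per mouse. Dnmt3a codes for a DNA methyltransferase, and the kind of mutant allele is not stated in the labels. Per the labels, platelets were taken from platelet-rich plasma of heart blood and depleted with anti-Ter119 beads, for red cells, and anti-CD45 beads, for leukocytes. Polyadenylated RNA was then sequenced in strand-specific libraries.

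Each ribosome carries 1 copy of nearly every one of these proteins, so cells make them in step with each other. In mammals their mRNAs start with a run of pyrimidines, the terminal oligopyrimidine tract, through which the mTOR kinase and the RNA-binding protein LARP1 control their translation. Platelets are shed by megakaryocytes without a nucleus, so the ribosomal protein mRNAs they hold were made in the parent cell, and young platelets carry more RNA than old ones.

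The letters around the annotated start sites are shown for 6 genes that the results describe. RefSeq promoter windows (GRCm38.p6, from 250 bases before to 50 bases after each annotated start) were matched to 61 of the 83 genes, in 73 windows. Rpl13 is the gene with the smallest p-value, and Rpl27a and Rpl34 are among the genes named for their p-values. Rplp0 and Rpsa varied widely between libraries, and Rps13 varied least in scaled counts. Each sequence holds 15 bases before and 15 bases from the annotated start on, 5′ to 3′ on the sense strand, with the longest run of C or T among them in capitals. Where a gene has several annotated starts, the one with the longest run nearby was taken.
Rpl27a (chr7:109519180-109519209, plus strand): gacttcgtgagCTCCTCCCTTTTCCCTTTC
Rpl34 (chr3:130730323-130730352, minus strand): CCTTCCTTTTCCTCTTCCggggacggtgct
Rpl13 (chr8:123102335-123102364, plus strand): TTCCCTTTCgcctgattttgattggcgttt
Rplp0 (chr5:115559452-115559481, plus strand): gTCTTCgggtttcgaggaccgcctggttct
Rps13 (chr7:116334176-116334205, minus strand): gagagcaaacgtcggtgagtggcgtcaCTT
Rpsa (chr9:120127751-120127780, plus strand): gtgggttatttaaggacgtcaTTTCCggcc

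Within 20 bases of the annotated start on either side, which reaches past the printed bases, the longest run was 20 bases in Rpl27a and Rpl34, 10 in Rpl13, 7 in Rplp0, 6 in Rps13 and 5 in Rpsa. Most of the run in Rpl34 and all of the printed runs in Rpl13 and Rplp0 lie before the annotated start. These runs are therefore not the tract of an mRNA that begins there. The printed runs in Rps13 and Rpsa begin some bases past the annotated start, so they are not such a tract either. Only the run in Rpl27a spans the annotated start with most of its bases after it. A run of at least 8 C or T within 20 bases of the annotated start stood in 31 of the 73 windows (42.5%), against 16.0% of all 32851 RefSeq windows. Further motifs were searched on both strands of the whole window, and matches were not screened for overlap with each other. CCGGAAG, the core bound by ETS factors, stood in 26 windows (35.6%), against 8.86% of all windows. GGGCGG, the GC box, stood in 42 (57.5%) against 35.7%, and AAGATGG, the core of YY1, in 11 (15.1%) against 6.34%. TATAA, searched in the same way, was at a like share in these genes and elsewhere (24.7% against 24.9%). A match is a description of the letters and not a mapped binding site, and annotated starts can lie some bases from the start used in megakaryocytes.

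Several libraries stood apart in ways that bear on the results. Total counts ran from 15620972 to 22160394 in the libraries labelled Dnmt3a+/- and from 15185218 to 17398666 in WT. Dnmt3a itself was at 9.96, 11.5, 24.2 and 19.5 CPM (TMM-scaled counts per 1000000) in the libraries labelled Dnmt3a+/-, against 21.1, 22.1, 19.8 and 18.2 CPM in WT. Thus 2 of the libraries labelled Dnmt3a+/- lay within or above the WT range. Since the kind of allele is not stated, the RNA level cannot tell whether a label is right, and the labels were used as given. All 6 platelet markers were abundant, and their summed share was 3.44% to 3.94% of counts in Dnmt3a+/- libraries and 3.22% to 3.73% in WT. The 7 erythroid markers summed to 0.317% to 0.485% in Dnmt3a+/- libraries and 0.202% to 2.03% in WT, the highest in WT replicate 1, and Slc4a1 was at 0 in 1 library. Mitochondrially encoded genes took 17.6% to 19.0% of counts in Dnmt3a+/- libraries and 16.7% to 24.8% in WT. The 24.8% was that of WT replicate 3, which also had the lowest platelet share and the lowest ribosomal protein share of TPM of the 8 libraries. Summed hepatocyte markers reached 0.0103% in Dnmt3a+/- libraries and 0.106% in WT. The 6 leukocyte markers summed to at most 0.000295%, with Cd3e at 0 in all 8 libraries.

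Ribosomal protein genes made up a small and nearly equal part of the platelet RNA under both labels. They took 0.296%, 0.205%, 0.258% and 0.211% of counts in Dnmt3a+/- replicates 1 to 4, against 0.299%, 0.246%, 0.208% and 0.225% in WT replicates 1 to 4. The lowest libraries of the labels were nearly equal, as were the highest, so the groups overlapped over nearly their whole range. The means were 0.242% ± 0.0427 in Dnmt3a+/- and 0.245% ± 0.0392 in WT (SD, n = 4 each), a log2 difference of -0.02 (SE 0.17). Counting error was much smaller than this spread: the 95% Wilson interval was 0.293% to 0.299% in Dnmt3a+/- replicate 1 and 0.203% to 0.207% in Dnmt3a+/- replicate 2. By TPM, transcripts per 1000000 corrected for gene length, the same genes held 0.695%, 0.504%, 0.626% and 0.514% in Dnmt3a+/- libraries and 0.695%, 0.594%, 0.469% and 0.537% in WT. In bulk samples such a share cannot tell fewer cells of a type from less RNA per cell.

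The balance between the subunits was also alike. Large subunit genes took 0.214%, 0.150%, 0.190% and 0.151% of counts in Dnmt3a+/- libraries, against 0.215%, 0.179%, 0.151% and 0.163% in WT. Small subunit genes took 0.0820%, 0.0545%, 0.0677% and 0.0605% in Dnmt3a+/- libraries, against 0.0840%, 0.0674%, 0.0574% and 0.0619% in WT. Both subunits were highest in replicate 1 of each label. The ratio of large to small subunit counts was 2.61, 2.76, 2.80 and 2.50 in Dnmt3a+/- libraries and 2.56, 2.66, 2.63 and 2.64 in WT. All 4 WT ratios lay inside the range of the Dnmt3a+/- ratios, and the log2 difference of the means was 0.03 (SE 0.04).

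**Figure D1:**
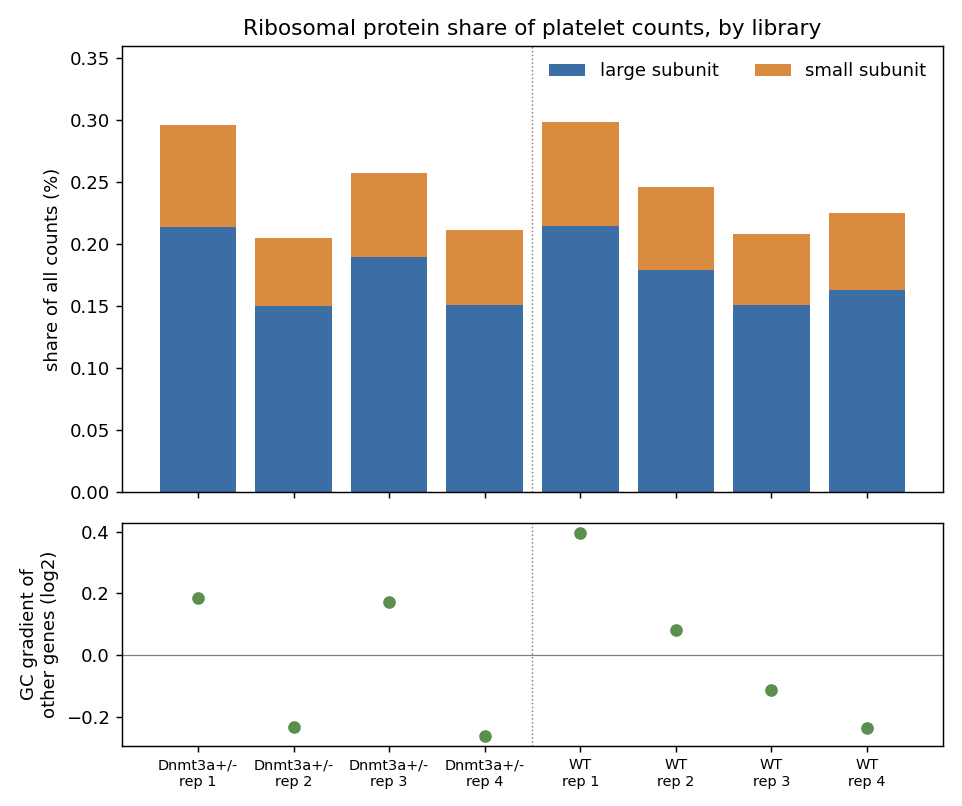
Upper panel: share of all counts (%) in large subunit (blue) and small subunit (orange) genes, stacked, for each of the 4 Dnmt3a+/- libraries (left) and 4 WT libraries (right). Lower panel: GC gradient (log2) of other genes in the same libraries, defined later in the text. Replicate 1 is the highest bar of each label, at 0.296% in Dnmt3a+/- and 0.299% in WT, and the libraries of the labels overlap.

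Single genes differed far more from each other than any differed between libraries. Of the 76 genes with enough counts to be tested, 17 averaged over 100 TPM, 41 lay between 20 and 100 TPM, and 18 lay under 20 TPM. The median was 32.6 TPM for the large subunit and 33.2 TPM for the small subunit. The 10 highest genes held 52.4% of the TPM in all 83, and the order of the genes was nearly the same in every library (Spearman rho 0.943 to 0.984 between pairs of libraries over the 76 genes, a description since all libraries share transcript lengths and annotation). Many of these genes have processed pseudogenes. Those with an Rpl or Rps symbol ending in -ps filled 319 rows and together held 146 to 225 counts per library, against 32556 to 47795 in the 83 genes. Pseudogenes under other symbols were not counted here. How reads shared between a gene and its copies were divided could shift single values.

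Rpl41, which codes for the smallest ribosomal protein, was the highest, at 1497, 1202, 1569 and 1012 TPM in Dnmt3a+/- libraries and 1609, 1392, 1066 and 1136 TPM in WT. It alone held 19.7% to 25.1% of the genes' TPM in Dnmt3a+/- libraries and 21.1% to 23.4% in WT, and its rank among all genes was 93. Rpl31, a large subunit protein near the exit of the peptide tunnel, followed at 392, 244, 286 and 268 TPM in Dnmt3a+/- libraries, against 308, 253, 237 and 299 TPM in WT. Replicate 1 was the highest of its label for Rpl31, and the labels overlapped. Rpl10, an X-linked gene whose protein joins the large subunit late in assembly, was at 397, 202, 262 and 212 TPM in Dnmt3a+/- libraries and 373, 242, 191 and 253 TPM in WT. Rps12, of the small subunit, was at 275, 186, 207 and 218 TPM in Dnmt3a+/- libraries and 232, 209, 190 and 202 TPM in WT. These also overlapped, again with replicate 1 of each label on top. Rpl37a, of the large subunit, was the fifth, at 236, 180, 212 and 165 TPM in Dnmt3a+/- libraries and 203, 177, 142 and 165 TPM in WT.

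**Figure D2:**
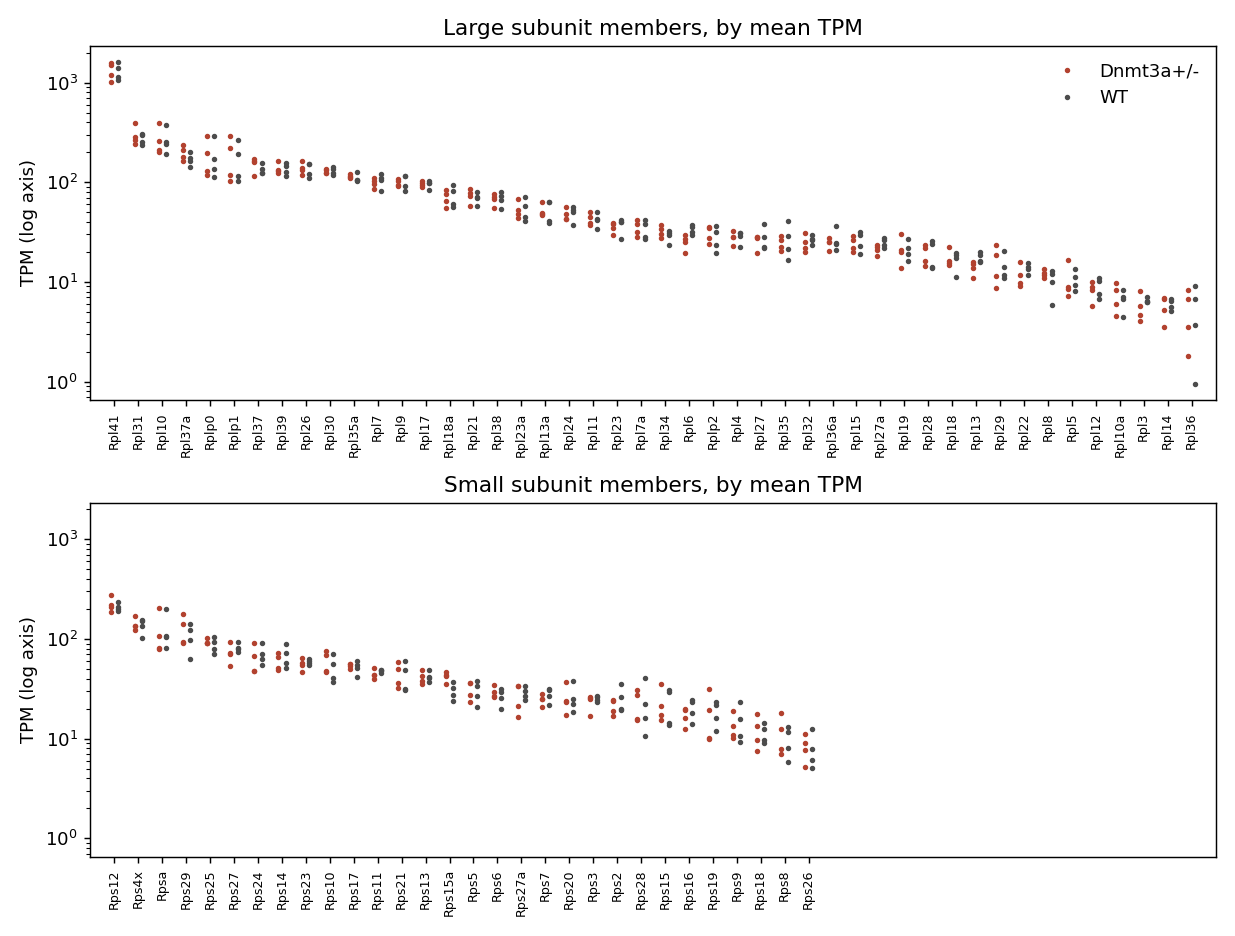
TPM (log axis) of the 76 tested genes, large subunit above and small subunit below, each ordered by mean TPM. Points are single libraries, Dnmt3a+/- in red left of WT in grey; Rpl41 stands alone at 1310 TPM on average, and Rpl36, at the low end, spreads most.

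At the other end stood Rpl36, of the large subunit, at 8.21, 1.81, 6.69 and 3.54 TPM in Dnmt3a+/- libraries and 6.68, 9.12, 3.67 and 0.95 TPM in WT. Those values rest on 27, 6, 24 and 16 counts in Dnmt3a+/- libraries and 23, 34, 15 and 3 counts in WT, so counting error is large. Rpl14 was at 5.60 ± 1.57 TPM in Dnmt3a+/- and 5.98 ± 0.774 TPM in WT, and Rpl3, which lies near the peptidyl transferase centre, at 5.60 ± 1.79 TPM in Dnmt3a+/- and 6.50 ± 0.402 TPM in WT (SD, n = 4 each). Rpl10a was at 7.13 ± 2.31 TPM in Dnmt3a+/- and 6.61 ± 1.61 TPM in WT, and Rps26, a small subunit protein at the mRNA exit, at 8.26 ± 2.50 TPM in Dnmt3a+/- and 7.92 ± 3.28 TPM in WT. Proteins that stand 1 to 1 in the ribosome thus had mRNAs between about 5.08 TPM for Rpl36 and 1310 TPM for Rpl41.

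Of the 83 genes, 7 had too few counts to be tested, and these are copies of another gene of the set. Rps27l, a paralog of Rps27 known as a target of p53, had 9, 8, 4 and 13 counts in Dnmt3a+/- libraries and 4, 5, 12 and 8 counts in WT, while Rps27 was at 71.4, 53.6, 71.5 and 92.5 TPM in Dnmt3a+/- libraries and 93.1, 81.8, 80.2 and 74.4 TPM in WT. Rps4l, annotated as a transcribed pseudogene, had 1, 1, 3 and 0 counts in Dnmt3a+/- libraries and 1, 4, 3 and 0 counts in WT. Its X-linked parent Rps4x averaged 138 TPM over the 8 libraries. Rpl3l, the form of Rpl3 found in muscle, had a single count, in Dnmt3a+/- replicate 2, and Rpl6l, annotated as a pseudogene, had a single count, in WT replicate 2. Rpl10l and Rpl39l, forms known from testis, and the pseudogene Rpl32l were at 0 counts in all 8 libraries. A count of 0 allows up to 3 counts in a library, or 0.135 to 0.192 CPM in Dnmt3a+/- libraries and 0.172 to 0.198 CPM in WT, so these forms were not detectable at this depth.

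No ribosomal protein gene differed between the labels in edgeR's quasi-likelihood test. None of the 76 passed an adjusted p of 0.05 (smallest 0.972), against 0% of all 7362 genes tested. At an unadjusted p under 0.05, 0 of the 76 were higher in Dnmt3a+/-, where the share of all genes was 1.73%, and 1 was lower, where it was 3.19%. DESeq2, run as another tool, called none of the 76 at an adjusted p of 0.05, against 0.122% of all genes. The limma test on log2(TPM + 1) called none of the 76 and 0% of all genes. Log2 fold changes of the 76 ran from -0.39 to 0.22, with a median standard error of 0.19, against a range of -4.51 to 1.91 and a median standard error of 0.22 over all genes tested. They were positive for 25 genes and negative for 51 with a median of -0.04, against 3611 positive and 3751 negative with a median of -0.01 over all genes tested. That split varied with the unit and with single libraries. On log2(TPM + 1) it was 39 positive and 37 negative, and with DESeq2 24 positive and 52 negative. With 1 library left out it ran from 14 positive and 62 negative (without Dnmt3a+/- replicate 3) to 46 and 30 (without WT replicate 1). The medians there were -0.09 and 0.03. Subunits were alike here too, with 16 positive and 30 negative in the large subunit (median -0.03) and 9 positive and 21 negative in the small subunit (median -0.04).

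**Figure D3:**
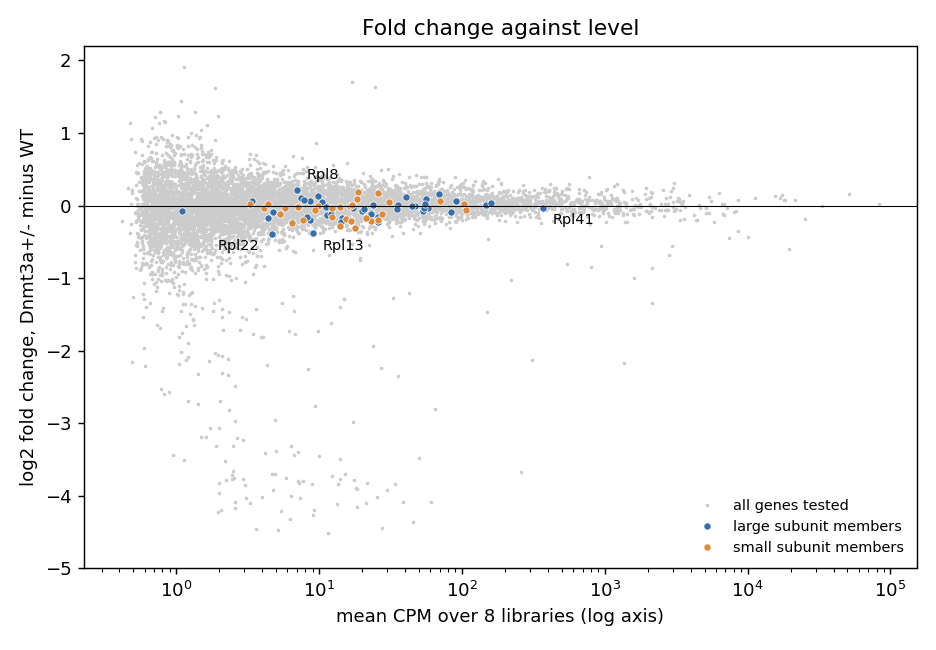
Log2 fold change, Dnmt3a+/- minus WT, against mean CPM over the 8 libraries (log axis) for all 7362 genes tested (grey) and the ribosomal protein genes (coloured by subunit). The 76 ribosomal protein genes lie between -0.39 and 0.22, close to 0 within the cloud of other genes.

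Rpl13, a large subunit protein (ENSMUSG00000000740, chr8:123102350-123105244, plus strand, GRCm38), had the smallest p-value. It was at 8.90, 6.13, 9.10 and 7.42 CPM in Dnmt3a+/- libraries, against 11.0, 10.5, 10.5 and 9.13 CPM in WT. Every Dnmt3a+/- library lay under every WT library in CPM, though Dnmt3a+/- replicate 3 was only just below WT replicate 4. Rpl13 was the only gene of the 76 whose labels did not overlap in CPM, where 2.54% of all genes tested did not. Its log2 fold change was -0.38 (SE 0.16), with an unadjusted p of 0.0336 and an adjusted p of 0.972 in edgeR's test. In TPM the labels did overlap for Rpl13, at 15.1, 11.0, 15.9 and 13.8 TPM in Dnmt3a+/- libraries against 18.8, 19.9, 15.7 and 16.3 TPM in WT.

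In TPM the only gene of the 76 whose labels did not overlap was Rpl6, of the large subunit, where 1.82% of all genes tested did not. It was at 29.3, 19.6, 26.8 and 25.3 TPM in Dnmt3a+/- libraries, against 35.6, 37.3, 31.7 and 29.4 TPM in WT. In CPM it was at 30.5, 17.3, 26.4 and 21.5 in Dnmt3a+/- libraries and 34.1, 28.0, 27.0 and 22.5 in WT, which overlap, and its log2 fold change was -0.23 (SE 0.19), with an adjusted p of 0.998 in edgeR's test.

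The next 4 genes on the lower side did not separate the labels. Rpl22, an RNA-binding large subunit protein with a role in early T-cell development, was at 3.17, 4.27, 3.52 and 5.25 CPM in Dnmt3a+/- libraries and 4.84, 5.57, 6.40 and 4.50 CPM in WT, a log2 fold change of -0.39 (SE 0.20). Rpl22l1, its paralog, which the symbol rule leaves out, was at 1.58, 1.36, 1.88 and 2.04 CPM in Dnmt3a+/- libraries and 2.23, 1.30, 1.38 and 1.04 CPM in WT, a log2 fold change of 0.21 (SE 0.29). Neither passed the test. Rps7, a small subunit protein that binds MDM2, was at 13.2, 14.4, 15.7 and 14.4 CPM in Dnmt3a+/- libraries and 17.2, 16.6, 15.6 and 16.3 CPM in WT, with Dnmt3a+/- replicate 3 above WT replicate 3. Rps27 was at 12.9, 9.23, 13.3 and 15.1 CPM in Dnmt3a+/- libraries and 17.1, 13.9, 17.4 and 12.9 CPM in WT, and Rpl27a, whose start is among the sequences shown, at 13.2, 10.8, 14.0 and 14.5 CPM in Dnmt3a+/- libraries and 14.4, 15.8, 17.8 and 13.5 CPM in WT. Their log2 fold changes were -0.19 (SE 0.12), -0.28 (SE 0.17) and -0.23 (SE 0.14), each with an adjusted p of 0.998 in edgeR's test.

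On the higher side no gene came near the threshold. Rpl8, a large subunit protein near the peptidyl transferase centre, was at 7.58, 6.75, 7.76 and 8.16 CPM in Dnmt3a+/- libraries and 7.90, 7.58, 4.39 and 6.19 CPM in WT, a log2 fold change of 0.22 (SE 0.19). WT replicate 3 was the low library there. Rpl37a, Rpl34, Rpl37 and Rps10 had log2 fold changes of 0.16 (SE 0.15), 0.13 (SE 0.15), 0.12 (SE 0.15) and 0.18 (SE 0.23). Single libraries set these sizes: without Dnmt3a+/- replicate 1, Rps10 was at 0.04 and Rpl34 at 0.02, and without WT replicate 3 Rpl8 was at 0.07. Rps10, a small subunit protein at the mRNA entry side, was at 25.9, 15.1, 23.4 and 15.4 CPM in Dnmt3a+/- libraries and 24.3, 13.0, 14.8 and 18.1 CPM in WT. Its spread within each label was wider than the difference between the labels. In limma's test on log2(TPM + 1) the smallest p-value was that of Rps15a, of the small subunit (adjusted p 0.909). It was at 41.9 ± 4.94 TPM in Dnmt3a+/- and 30.1 ± 5.53 TPM in WT (SD, n = 4 each), with the labels overlapping. In edgeR's fit its log2 fold change was -0.06 (SE 0.16), so its direction depended on the unit.

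The genes that varied most between libraries did so within both labels. Rplp0, Rplp1 and Rplp2 code for the stalk of the large subunit, which recruits the elongation factors. Rplp0 was at 291, 131, 196 and 118 TPM in Dnmt3a+/- libraries and 291, 171, 113 and 137 TPM in WT. Rplp1 was at 288, 119, 221 and 103 TPM in Dnmt3a+/- libraries and 263, 190, 103 and 116 TPM in WT. Replicate 1 of each label was more than double the lowest library of its label for both genes. Rplp2 was lower, at 34.8, 24.2, 35.7 and 27.7 TPM in Dnmt3a+/- libraries and 36.5, 31.5, 23.2 and 19.3 TPM in WT. Rpsa, a small subunit protein also known as the laminin receptor, was at 202, 80.3, 107 and 78.9 TPM in Dnmt3a+/- libraries and 201, 105, 81.0 and 107 TPM in WT. The log2 fold changes were 0.04 (SE 0.33) for Rplp0, 0.09 (SE 0.37) for Rplp1, 0.10 (SE 0.23) for Rplp2 and -0.07 (SE 0.34) for Rpsa, all with wide errors.

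Other genes varied little between libraries in CPM. Rps13, of the small subunit, ran from 12.9 CPM in Dnmt3a+/- replicate 3 to 15.3 CPM in Dnmt3a+/- replicate 4. Its log2 CPM had an SD of 0.08 over the 8 libraries, the narrowest of the 76. In TPM it spread more, at 37.5, 42.4, 35.2 and 48.9 TPM in Dnmt3a+/- libraries and 41.3, 40.2, 37.1 and 48.9 TPM in WT. Rpl30 was at 125, 134, 135 and 124 TPM in Dnmt3a+/- libraries and 119, 142, 123 and 135 TPM in WT, with an SD of 0.10 in log2 CPM. The widest SDs were 0.66 for Rpl36, 0.62 for Rplp1, 0.57 for Rpsa and 0.56 for Rplp0. Rps15a, Rps13, Rpl30, Rpl6 and the genes of blood disease in the next paragraph were chosen after their values were seen. Over the 76 genes the median SD was 0.28, against 0.27 over all genes tested and 0.21 over 1343 other genes of like CPM.

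Also read were 4 of the genes whose human counterparts are known from inherited or acquired anaemia, with standard errors up to 0.31. Rps19, the gene most often mutated in Diamond-Blackfan anaemia, was at 10.23, 10.02, 31.3 and 19.3 TPM in Dnmt3a+/- libraries and 21.6, 23.1, 15.9 and 12.0 TPM in WT, a log2 fold change of -0.04 (SE 0.31). Dnmt3a+/- replicate 3 was the highest of all 8, and Dnmt3a+/- replicates 1 and 2 the lowest. Rps14, lost with the long arm of chromosome 5 in a human myelodysplastic syndrome, was at 72.1, 51.4, 65.7 and 49.4 TPM in Dnmt3a+/- libraries and 88.3, 72.1, 51.5 and 58.0 TPM in WT, a log2 fold change of -0.21 (SE 0.19). Rpl5 and Rpl11, which hold MDM2 in check together with the smallest ribosomal RNA of the large subunit, had log2 fold changes of -0.12 (SE 0.20) and -0.05 (SE 0.14). None of the 4 passed the test.

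Rps27a, which codes for ubiquitin fused to a small subunit protein, was at 16.7, 21.4, 34.0 and 33.5 TPM in Dnmt3a+/- libraries and 26.7, 33.4, 24.5 and 29.8 TPM in WT, a log2 fold change of -0.16 (SE 0.21). It was lowest in Dnmt3a+/- replicate 1, where most genes of the set were above their mean. Genes of the same ribosome that the symbol rule leaves out, and paralogs, were read beside the set. Fau, which fuses a ubiquitin-like protein to a small subunit protein, was at 228 ± 28.8 TPM in Dnmt3a+/- and 221 ± 37.0 TPM in WT (SD, n = 4 each). Rps3a1 was at 65.0 ± 4.80 TPM in Dnmt3a+/- and 63.8 ± 3.85 TPM in WT. Rack1, a scaffold on the small subunit, was at 8.96 ± 1.75 TPM in Dnmt3a+/- and 11.1 ± 3.57 TPM in WT. The paralog Rpl36al was at 5.45 ± 1.29 TPM in Dnmt3a+/- and 6.13 ± 2.01 TPM in WT, and Rpl7l1 at 1.46 ± 0.621 TPM in Dnmt3a+/- and 1.22 ± 0.735 TPM in WT. None of these genes passed the test.

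What the genes shared was a pattern across libraries that cut across the labels. Relative to its own mean over the 8 libraries, the median gene of the 76 deviated by 0.17, -0.28, 0.05 and -0.14 (log2 CPM) in Dnmt3a+/- replicates 1 to 4 and by 0.25, 0.04, -0.03 and -0.12 in WT replicates 1 to 4. In WT replicate 1, 71 of the 76 genes were above their own mean, and in Dnmt3a+/- replicate 2 only 7 were. The counts above the mean were 55, 7, 56 and 26 in Dnmt3a+/- libraries and 71, 44, 34 and 21 in WT. Each label thus held libraries on both sides.

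**Figure D4:**
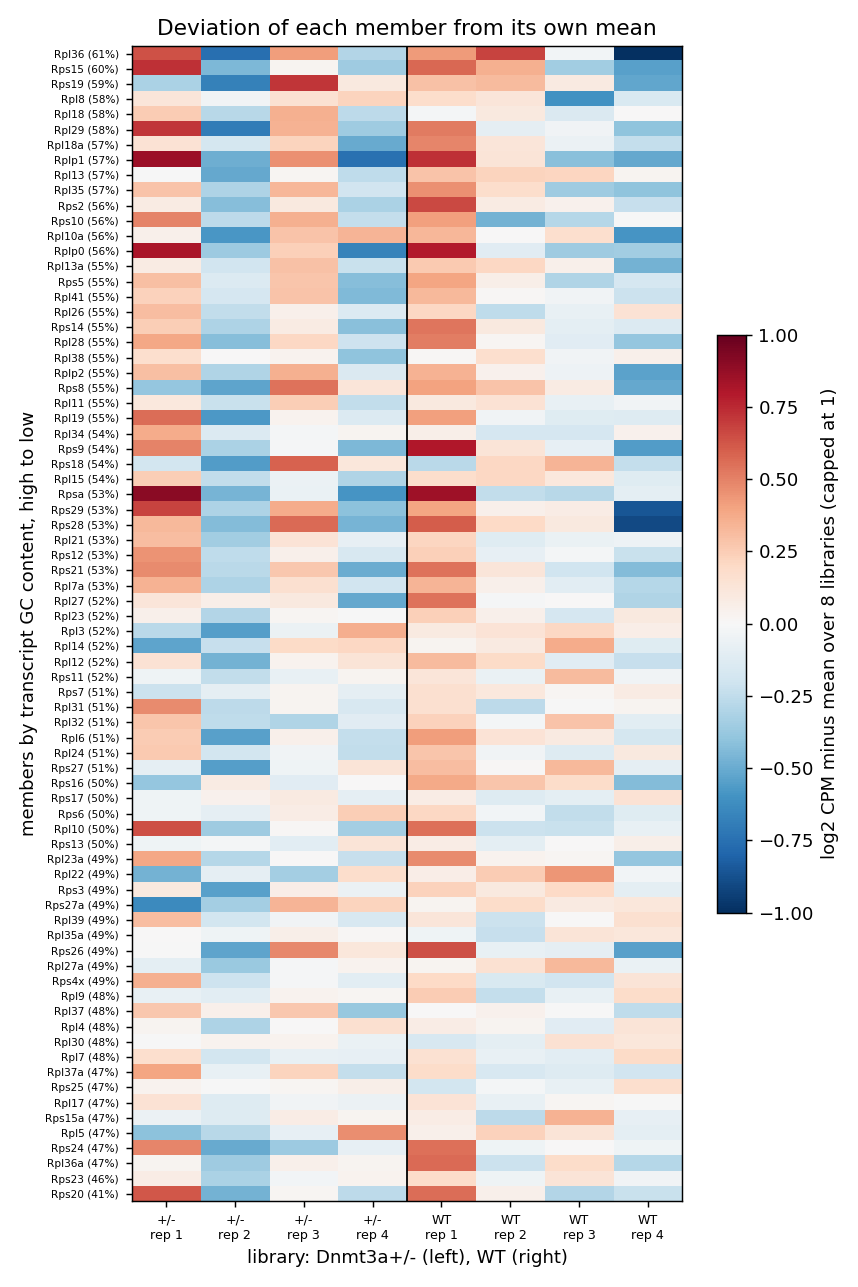
Deviation of each of the 76 genes (rows, ordered by transcript GC content, high at the top) from its own mean log2 CPM, in 4 Dnmt3a+/- libraries (left) and 4 WT libraries (right). Red is above and blue below the gene's mean: 71 genes are above it in WT replicate 1 and 7 in Dnmt3a+/- replicate 2, and colours are stronger towards the top.

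The pattern was larger in genes of high GC content and moved with a GC gradient of the other genes. The gradient was the median log2 CPM of 2421 other genes with over 52.8% GC minus that of 2421 other genes under 47.2% GC. It was then centred on its mean over the libraries. Its values were 0.19, -0.23, 0.17 and -0.26 in Dnmt3a+/- libraries and 0.40, 0.08, -0.11 and -0.23 in WT. The 4 libraries with a positive gradient were also the 4 with the highest ribosomal protein share, 2 of each label. Erythroid markers, too, were highest in replicate 1 of each label, at 0.485% of counts in Dnmt3a+/- and 2.03% in WT. Among the rest the order was mixed. Dnmt3a+/- replicate 2 had a higher erythroid share than replicate 3 (0.352% against 0.319%) but a lower ribosomal protein share (0.205% against 0.258%). In WT, replicate 2 was next after replicate 1 in both shares. The part of the GC gradient and of erythroid RNA in the share was not tested. With the gradient as a covariate in the edgeR fit, an alternative chosen after seeing the data, none of the 76 genes passed the threshold, and 39 were positive and 37 negative.

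Among the 76 genes, the 25 of highest GC content (54.6% to 60.8%) deviated by a median of 0.26, -0.31, 0.28 and -0.25 in Dnmt3a+/- libraries and 0.40, 0.09, -0.07 and -0.24 in WT. The 25 of lowest GC content (41.3% to 49.8%) deviated by 0.03, -0.21, 0.01 and 0.01 in Dnmt3a+/- libraries and 0.13, -0.07, 0.00 and -0.04 in WT. The 26 genes between these sets deviated by 0.25, -0.26, 0.03 and -0.10 in Dnmt3a+/- libraries, and by 0.24 in WT replicate 1. Dnmt3a+/- replicate 2 was thus low in every set. Replicate 1 of each label was high in the middle set as well as in the GC-rich one. In WT replicate 1, 22 of the 25 GC-poor genes were also above their own mean. Dnmt3a+/- replicates 3 and 4 deviated mainly in the GC-rich genes. The median SD over the 8 libraries was 0.34 in the GC-rich genes and 0.21 in the GC-poor ones. Across the 76 genes, SD and transcript GC content had a Spearman rho of 0.49, and SD and the GC content of the coding sequence 0.61, both as descriptions of genes that share the same 8 libraries. Rps20 stood off this trend: its GC content of 41.3%, like that of every gene here, is the median over its annotated transcripts, and which of them platelets hold was not measured.

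**Figure D5:**
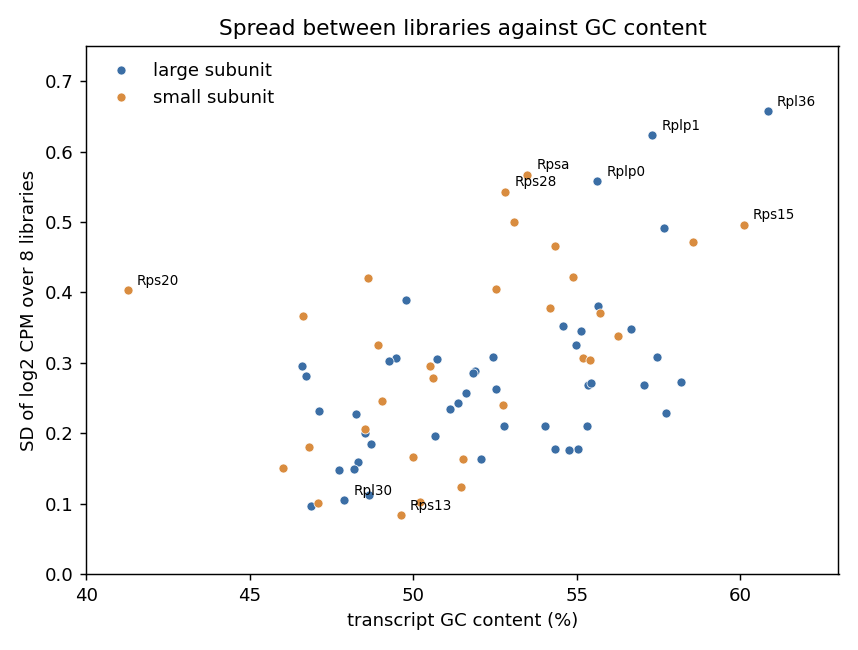
SD of log2 CPM over the 8 libraries against transcript GC content (%) for the 76 genes, coloured by subunit. Each point is a gene; Rpl36, Rplp1, Rpsa and Rplp0 spread most (SD 0.66 to 0.56), Rps13 least (0.08), and Rps20 lies alone at 41.3% GC.

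Neighbouring gene groups did not differ between the labels either, and in each the count at an adjusted p of 0.05 in edgeR's test was 0. Of 78 mitochondrial ribosomal protein genes, which serve the separate ribosome of that organelle, 33 were tested, 14 positive and 19 negative (median -0.03). They took 0.0178% ± 0.000742 of counts in Dnmt3a+/- and 0.0182% ± 0.00190 in WT (SD, n = 4 each), a narrower spread than that of the cytosolic set. The 2 smallest p-values were those of Mrps33 (log2 fold change -0.25, SE 0.14) and Mrpl22 (0.33, SE 0.20). Other mRNAs with a terminal oligopyrimidine tract, mainly elongation and initiation factors, had 27 of 28 tested, 10 positive and 17 negative (median -0.02). Eif3e, an initiation factor subunit, stood first there at -0.22 (SE 0.15). Their summed share ran from 0.508% to 0.540% of counts in Dnmt3a+/- libraries and from 0.445% to 0.569% in WT, above that of the 83 ribosomal protein genes in every library.

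Genes that build ribosomes were mostly at low counts, while most genes that control the translation of ribosomal protein mRNAs could be tested. Of 60 ribosome assembly factors 18 were tested, 6 positive and 12 negative (median -0.06). Ddx21, a nucleolar RNA helicase, had a log2 fold change of -0.79 (SE 0.37) from 7, 13, 15 and 24 counts in Dnmt3a+/- libraries and 18, 39, 25 and 12 counts in WT, and Ncl, the nucleolar protein nucleolin, one of -0.22 (SE 0.12). Their adjusted p-values in edgeR's test were 0.987 and 0.998. Of 29 genes that control the translation of ribosomal protein mRNAs 21 were tested, 12 positive and 9 negative (median 0.03). Tsc2 and Tsc1, which together hold mTOR signalling down, had log2 fold changes of -0.24 (SE 0.16) and 0.53 (SE 0.37), and neither passed the test.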

How the data were processed

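The estimated counts and TPM values were deposited by the authors for 8 libraries. The build mm10 and the tools cutadapt, STAR, RSEM and DESeq2 are named, per the submitters' processing notes, without role or version; the sources used here state neither annotation release nor strand setting. The deposited estimated counts are whole numbers and were used as such, and the deposited TPM sum to 1000000 in each library. Coordinates, gene types and transcript GC content (the median over a gene's transcripts) come from GENCODE M21 on GRCm38, the build also called mm10, which holds 55141 of the 55487 identifiers.

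Fold changes are Dnmt3a+/- minus WT from edgeR 4.0.16 under R 4.3.3 (TMM, filterByExpr by group with minimum count 10 and minimum total 15, glmQLFit and glmQLFTest, Benjamini-Hochberg over 7362 genes, threshold 0.05), with standard errors derived from the F statistic. The biological coefficient of variation was 0.248. DESeq2 1.42.0 and limma 3.58.1 on log2(TPM + 1) were alternatives; a fold change on that scale understates low genes. Others were upper-quartile and RLE scaling, no filter on low counts, the replicate number as a block and each library left out. Spreads used log2(CPM + 0.5). Shares were computed from unscaled counts, and their intervals and limits cover counting error only.

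The members, gene lists and alternatives were chosen with earlier results of these data known. Most genes were named by a rule: the 5 smallest unadjusted p in each direction, the 5 highest and 5 lowest TPM, genes whose labels did not overlap in CPM, genes under the filter, paralogs, a fixed set given as levels, and the 2 smallest p of each other list. Rps15a, Rps13, Rpl30, Rpl6, Rps20, Rps14, Rps19, Rpl5, Rpl11 and the choice of printed sequences fall outside it and were made after values were seen. A gene among those outside the symbol rule is not reported here.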

Additional observations from a re-analysis of the deposited data

Results flagged for a closer look

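Rpl37, a large subunit protein, had 1 library far from the others of its label in TPM. It was at 162, 162, 170 and 117 TPM in Dnmt3a+/- replicates 1 to 4, so that replicate 4 lay apart from the other Dnmt3a+/- libraries, against 136, 155, 123 and 124 TPM in WT. In CPM the values were 48.9, 41.9, 48.9 and 30.9 in Dnmt3a+/- libraries and 40.5, 41.7, 40.4 and 33.8 in WT, with the same Dnmt3a+/- library lowest. It was 1 of 48 groups of 4 values examined in this way, and chance alone picks out about 1 group in 20.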

How the results depend on the processing

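None of the tested ribosomal protein genes was called under any of the 15 alternatives to the fit, and the 10 genes named for their p-values, 5 in each direction, kept their direction in all 150 refitted values, though not their size. These 10 genes were picked by p-value in the same libraries that the refits reuse, so a kept direction adds no independent evidence. With 1 library left out, the log2 fold change ran from 0.04 (without Dnmt3a+/- replicate 1) to 0.38 (without WT replicate 1) for Rps10, 0.02 to 0.19 for Rpl34, 0.05 to 0.26 for Rpl37a, 0.06 to 0.25 for Rpl37, 0.07 to 0.32 for Rpl8, -0.55 to -0.28 for Rpl22, -0.37 to -0.16 for Rps27, -0.28 to -0.15 for Rpl27a, -0.22 to -0.14 for Rps7 and -0.45 to -0.29 for Rpl13. Calls elsewhere in the genome moved: 250 genes passed without a filter on low counts (80 ribosomal protein genes tested), 9 with DESeq2, and 0 to 135 with 1 library left out, 135 without WT replicate 1 and 1 without Dnmt3a+/- replicate 2. The cause was not tested. For Rpl13 the adjusted p was 0.701 with the GC gradient as a covariate.

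The median log2 fold change of the ribosomal protein genes, -0.04 in the fit reported, stayed within 0.2 of 0 but changed sign with single libraries, from -0.14 without Dnmt3a+/- replicate 1 to 0.03 without WT replicate 1; it was 0.00 on log2(TPM + 1) and 0.00 with the GC gradient as a covariate. The log2 difference in share, -0.02, ran from -0.12 to 0.09 with 1 library left out, was 0.03 by TPM and -0.04 without mitochondrial and globin genes. The log2 difference in the subunit ratio ran from 0.00 to 0.06.

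With the replicate number as a block, edgeR called 0 genes and 0 ribosomal protein genes, and the median was -0.04. Same-numbered libraries had correlations of -0.04, 0.08, 0.16 and -0.17 between their deviations. No Dnmt3a+/- library correlated best with the WT library of its own number, and of the WT libraries only replicate 3 did so in turn. The numbers were therefore not taken as pairs.

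Depth limits Rpl36 (3 counts in WT replicate 4) and the genes under the filter most.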

Other observations

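Leaving Rpl41 out, a choice made after seeing the data, gave a log2 difference of -0.02 in the ribosomal protein share and 0.03 in the subunit ratio, Dnmt3a+/- minus WT.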
